A study of Homo sapiens with 2 samples.

Results

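Unnamed transcript clusters are regions of the human genome for which the array carried probes but for which its annotation gave no gene symbol. Of 42204 unnamed clusters on the array, 7928 had a log2 signal of at least 5.8447 in the brighter of the 2 arrays, which made them the clusters described here. That floor was the median of the brighter signal over 22413 named genes, so an unnamed cluster above it was at least as bright as the middle named gene. The choice used the measured signals, and the signal levels below are therefore a description. A cluster above the floor in only 1 array also had its direction fixed by the choice.

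The samples were MHCC97H cells in which GP73 had been knocked down (1 array) and MHCC97H control cells (1 array), which the labels call high in GP73. MHCC97H is a human hepatocellular carcinoma cell line, and both cultures were grown in DMEM with 10% fetal bovine serum and antibiotics. Total RNA (100 ng) was labelled by the whole-transcript method, which primes along the whole RNA and so also reports RNAs without a poly(A) tail. The study asked how GP73 works with downstream proteins in the growth of liver cancer cells. With 1 array per group there was no replicate error, no test was possible, and every difference below compares these 2 arrays only. The sources used here do not give the knockdown sequence, the number of clones or any pooling.

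GP73, the product of GOLM1, sits in Golgi membranes and is often raised in diseased liver. Array designs include unnamed clusters because much of the genome is transcribed outside annotated genes, into long noncoding RNAs, pseudogene copies, small structured RNAs and transcripts of repeated sequence. Probes in repeated sequence can bind RNA from several loci at once. A bright unnamed cluster is thus a measured signal at a set of probes and does not by itself identify a transcript.

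No sequence of an unnamed cluster is in the sources used here, but 1 of the clusters with a large difference had the values of a named microRNA, whose sequence is shown for that reason. TC12000172, on chromosome 12, had a log2 signal of 6.69 in the knockdown array and 8.01 in the control array (-1.32, 2.49-fold lower), and the same pair of values stood at TC05000561 and TC12001190, both annotated to MIR1244-1 and MIR1244-2. Rows whose values are equal to every deposited digit are called 1 measurement below, but the counts of clusters keep each row unless they are said to count equal pairs once. In RefSeq (GRCh38.p14) the MIR1244 family has 4 hairpins with 1 distinct hairpin sequence and 1 distinct mature sequence, and 2 of the hairpins are on chromosome 12. MIR1244-1 is at chr2:231713314-231713398 and MIR1244-2 at chr5:118974586-118974670, both on the plus strand. Both sequences are written 5′ to 3′, and the capitals mark the seed, bases 2 to 8 of the mature microRNA, with which a microRNA pairs to its targets.
MIR1244 hairpin: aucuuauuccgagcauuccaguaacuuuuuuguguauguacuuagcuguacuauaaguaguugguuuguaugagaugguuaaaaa
hsa-miR-1244: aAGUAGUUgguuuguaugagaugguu
Between LINC01252 and BORCS5, the named neighbours of TC12000172 in the order of cluster IDs, the gene table of GRCh38.p14 has 1 microRNA gene, MIR1244-4. Whether the probes of these rows report the hairpin, the mature RNA or a longer transcript cannot be read from the deposited values.

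GOLM1 had a log2 signal of 7.46 in the knockdown array and 9.13 in the control array, 3.18-fold lower, with a difference of -1.67. Only 3 of the 7928 unnamed clusters had a more negative difference. The liver and epithelial markers KRT8 and KRT18, keratins of simple epithelia, stood at 10.84 and 10.85 in the knockdown array and at 10.94 and 10.90 in the control array. APOH, a plasma glycoprotein made by hepatocytes, stood at 8.87 in the knockdown array and 9.07 in the control array. Of 13 hepatocyte markers 10 had a row of their own and 6 reached the floor, while ALB (3.76 in the knockdown array, 4.35 in the control array) and AFP (2.56 in both arrays) lay below it, so the hepatocyte label rested on part of the list. The floor was reached by 1 of 5 fibroblast markers with a row (COL1A1, 6.09 in the knockdown array and 5.92 in the control array), by 0 of 3 leukocyte markers and by 1 of 3 endothelial markers (PECAM1, 5.26 in the knockdown array and 5.98 in the control array). The part of other cell types in the differences below was not tested.

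The array table held 67528 transcript clusters, of which 62.5% had no symbol, 23784 had 1 symbol and 1540 had several. Bright clusters were less frequent without a symbol, at 18.8 per 100 unnamed clusters against 49.3 per 100 clusters with 1 symbol. A signal of 10 or more in both arrays was reached by 261 unnamed clusters, 0.618% of all unnamed clusters, and by 157 clusters with 1 symbol, 0.660% of all of those. Among clusters above the floor only, that was 3.29% of the 7928 unnamed clusters and 1.34% of the 11717 clusters with 1 symbol. Since the platform annotation gave no text for the unnamed clusters beyond their IDs, they could be grouped only by the chromosome in the ID, by ID order and by their values. Among named clusters the ID order followed the genome closely: of 22639 pairs of consecutive named clusters on a chromosome, 97.0% were in ascending position in the gene table of assembly GRCh38.p14. Of the 7928 unnamed clusters, 4205 lay in the longest stretch of IDs without a named cluster on their chromosome, where this order could not be checked. The sources used here hold no coordinates for the unnamed clusters, and the flanking named genes given below are neighbours in ID order without regard to strand.

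The brightest unnamed clusters differed little between the arrays. TC0M000004, on the mitochondrial genome, had a signal of 13.06 in the knockdown array and 13.10 in the control array. TC14001108, which lies in ID order between POLE2, a subunit of DNA polymerase epsilon, and LOC100506446, had 13.13 in the knockdown array and 13.03 in the control array. TC19002195 had 13.03 in the knockdown array and 13.08 in the control array. These were about as bright as the brightest named clusters, although POLE2 itself stood at only 6.22 in the knockdown array and 6.44 in the control array. The largest difference among the 10 brightest was -0.24, at TC01002863, with 12.8 in the knockdown array and 13.05 in the control array. Another 5 of the 10, on chromosomes 2, 4, 7 and 9, shared the same pair of values, 12.89 in the knockdown array and 12.91 in the control array. At the other end, the clusters just above the floor were TC20001346 (5.84471 in the knockdown array, 5.67 in the control array), TC03003039 (5.72 in the knockdown array, 5.84476 in the control array) and TC20000211 (5.84481 in the knockdown array, 5.26 in the control array). Just below it lay TC12000821, whose brighter signal was 5.84469, TC05001337 with 5.84458 and TC09002192 with 5.84454.

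Over the 7928 unnamed clusters the median signal was 6.64 in the knockdown array and 6.62 in the control array. The difference had a median of 0.03 and a robust SD of 0.325 across clusters, with its percentiles 1 and 99 at -0.90 and 1.00, and 4249 clusters (53.6%) were higher in the knockdown array. At least 2-fold differences were seen in 82 clusters that were higher (1.03%) and 46 that were lower (0.580%) in the knockdown array. Over all 20470 clusters above the floor, named and unnamed, the background was 0.498% higher and 0.308% lower (0.806% in all), a set that includes the unnamed clusters themselves. Among the 11717 clusters with 1 symbol the 2-fold threshold was passed upwards by 18 (0.154%) and downwards by 15 (0.128%), which makes 0.282% in all. The balance of the unnamed clusters depended on the scaling: with each array centred on its own median, which moved every difference by -0.085, the split was 46 higher and 75 lower.

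**Figure D1:**
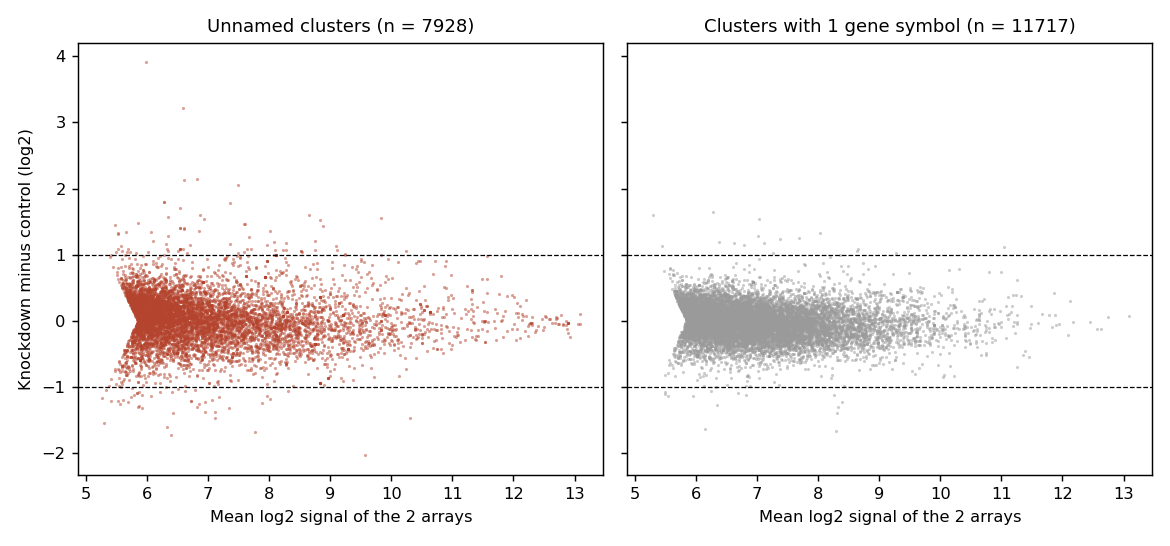
Difference in log2 signal (knockdown minus control, vertical axis) against the mean log2 signal of both arrays (horizontal axis), for 7928 unnamed clusters on the left and 11717 clusters with 1 gene symbol on the right, 1 point per cluster. Dashed lines mark 2-fold differences, which 128 unnamed and 33 named clusters reached, and the wedge at the left edge of each cloud is the floor.

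Because the floor was applied to the brighter array, the unnamed clusters fell into 3 kinds. In both arrays 6498 reached the floor, and among these the median difference was 0.01, with 50 clusters higher (0.769%) and 22 lower (0.339%) by 2-fold or more. Over all 20470 clusters above the floor in at least 1 array, named and unnamed, these shares were 0.498% and 0.308%. A further 949 unnamed clusters reached it in the knockdown array only, of which 32 (3.37%) were at least 2-fold higher. In the control array only, 481 reached it, of which 24 (4.99%) were at least 2-fold lower. The directions of these last 1430 clusters came from the choice. Of all 128 2-fold differences 56 came from clusters that were above the floor in a single array.

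The difference followed the signal level in both kinds of cluster, so unnamed and named clusters were compared within 10 bins that held equal numbers of unnamed clusters by mean signal. In the dimmest bin 787 of 793 unnamed clusters were above the floor in 1 array only, so that the floor shaped its differences, and its median was 0.23 for unnamed and 0.20 for named clusters. In the ninth bin the median was -0.07 for unnamed and -0.09 for named clusters. The medians of the unnamed clusters lay above those of the named clusters in 10 of 10 bins, but by only 0.01 to 0.05. The spread was where they differed more: the robust SD of the unnamed clusters was larger in 10 of 10 bins. In the ninth bin 2.90% of unnamed clusters and 0.682% of named clusters were at least 2-fold different. Over all bins the share was 1.61% for unnamed clusters and 0.304% for named clusters weighted to the same signal levels, a ratio of 5.31, and with the floor required in both arrays the ratio was 5.54. For scale, 93 named genes had 2 rows with distinct values on the array, and the differences of those rows varied with an SD of 0.133 within a gene. Both rows of a gene were read on the same 2 arrays, so this SD holds no variation between cultures or arrays.

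**Figure D2:**
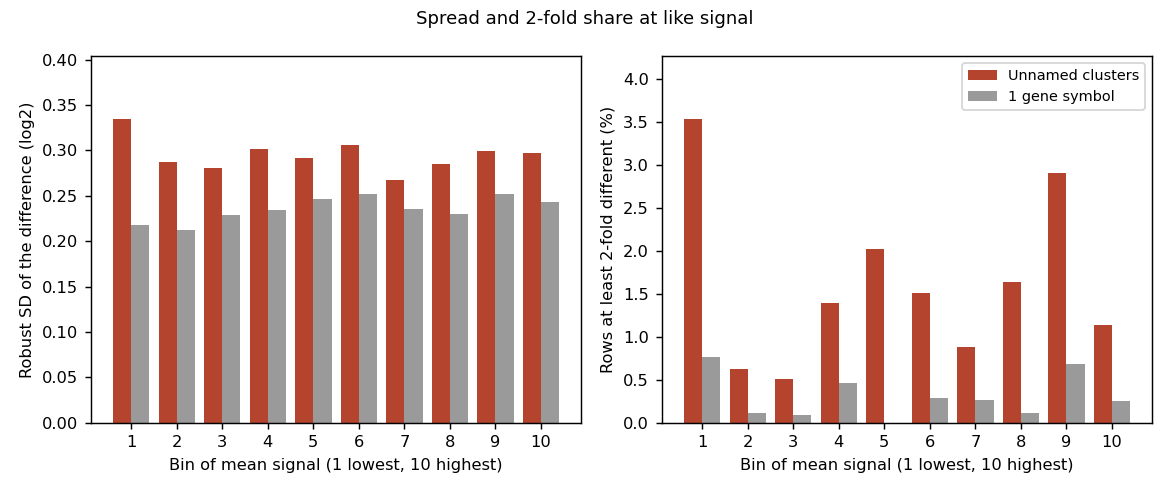
Robust SD of the knockdown minus control difference (left, log2) and share of clusters at least 2-fold different (right, %) in 10 bins of mean signal, for unnamed clusters (red bars) and clusters with 1 gene symbol (grey bars). The red bar is the taller in every bin of both panels, and in bin 5 no named cluster was 2-fold different, against 2.02% of unnamed clusters.

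The named clusters were not uniform in this respect. Those of protein-coding genes, 10342 in number, had a robust SD of 0.254 and 0.164% of them were at least 2-fold different. The 319 clusters of long noncoding RNA genes had a robust SD of 0.271, with 0.627% at least 2-fold different. For 279 microRNA clusters the robust SD was 0.331, close to that of the unnamed clusters, and 3 of them, or 1.08%, were at least 2-fold different, against 1.61% of the unnamed clusters. The 117 clusters of small nucleolar RNAs, which guide the modification of other RNAs, had the widest spread of the 8 named classes with at least 20 clusters, a robust SD of 0.411, and 5.98% were at least 2-fold different. The sources used here do not give a biotype for the unnamed clusters themselves.

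MIR222, a microRNA gene, had the highest difference among the clusters with 1 symbol, 1.65, and 9 unnamed clusters with 8 distinct pairs of values exceeded it. Of these 9, 7 reached the floor in the knockdown array only, so that their direction came from the choice, and 2, TC10001334 and TC10000551, reached it in both arrays. TC17000665 had a signal of 7.95 in the knockdown array and 4.04 in the control array, a difference of 3.91 or 15.01-fold. In ID order it lies between EME1, a subunit of a DNA structure-specific endonuclease (difference -0.11), and ACSF2, an acyl-CoA synthetase (0.15). TC04000772 had 8.20 in the knockdown array and 4.99 in the control array, a difference of 3.21 or 9.28-fold. It lies between TRIM2, a ubiquitin ligase (-0.30), and MND1, a meiotic recombination factor (-0.18). In both cases the control signal was below the floor and the flanking named genes differed by 0.30 or less in size.

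Next in order came TC15000464, with 7.88 in the knockdown array and 5.74 in the control array, and TC09001017, with 7.68 in the knockdown array and 5.54 in the control array, each 2.14 higher in the knockdown array. The highest cluster with both arrays above the floor was TC10001334, with 8.52 in the knockdown array and 6.46 in the control array (2.06), whose ID neighbour MIR1296, a microRNA gene, differed by -0.06. TC10000551, also on chromosome 10, had 8.25 in the knockdown array and 6.47 in the control array (1.79). TC09000167 and TC10000540, on different chromosomes, had identical values, 7.19 in the knockdown array and 5.38 in the control array (1.80), so they are 1 measurement. TC17000569 had 7.68 in the knockdown array and 6.07 in the control array (1.60), and lies between RUNDC3A (0.21) and GRN, the gene of the secreted growth factor progranulin (-0.18). TC11002989 had 9.45 in the knockdown array and 7.85 in the control array (1.60), and TC22001089, the brightest of the 15, had 10.6 in the knockdown array and 9.06 in the control array (1.55). The other 4 of the 15, TC09000164, TC10000273, TC02004169 and TC01002939, lay between 1.52 and 1.71. Among clusters above the floor in both arrays the list of the 10 highest was completed by TC09002024 (1.47), TC19000595 (1.46) and TC17002102 (1.44).

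The lowest difference belonged to TC03002425, with 8.56 in the knockdown array and 10.6 in the control array, 4.08-fold lower (-2.03). It and 2 others, TC04002793 (5.54 in the knockdown array, 7.26 in the control array, -1.72) and TC11003334 (6.93 in the knockdown array, 8.61 in the control array, -1.69), were lower than GOLM1. TC09001898 was the brightest cluster of the 15 lowest, with 9.57 in the knockdown array and 11.03 in the control array (-1.46). TC21000007, with 6.38 in the knockdown array and 7.84 in the control array (-1.46), has as its ID neighbour MIR3648-1, a microRNA gene, which differed by 0.09. TC18000384, with 5.72 in the knockdown array and 7.12 in the control array (-1.40), lies between ZNF519, a zinc finger gene (-0.09), and NF1P5, a pseudogene of NF1 (-0.16). TC02000880, with 5.27 in the knockdown array and 6.58 in the control array (-1.32), lies between RAB3GAP1, a subunit of a RAB3 regulator (-0.38), and R3HDM1 (0.11). The other 8 of the 15, TC02004094, TC16001543, TC19001322, TC19002259, TC12000172, TC07002487, TC13000880 and TC01003857, lay between -1.61 and -1.29. Among clusters above the floor in both arrays the 10 lowest also included TC09002139 (-1.25) and TC08002444 (-1.24).

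Taking both ends of the list, 22 named clusters lay within 3 ID numbers of a cluster with an extreme difference. Their own differences ran from -0.38 to 0.36, and 0 of them were 2-fold different. Of the 14 that reached the floor, 0 were 1.5-fold different. Over all clusters with 1 symbol above the floor 0.282% were 2-fold different, while 1.06% were at least 1.5-fold higher and 1.51% lower, so counts of 0 were near the background. The unnamed clusters were picked for extreme differences and their named neighbours were not. The smaller differences of the neighbours are thus a description that the choice itself favoured.

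**Figure D3:**
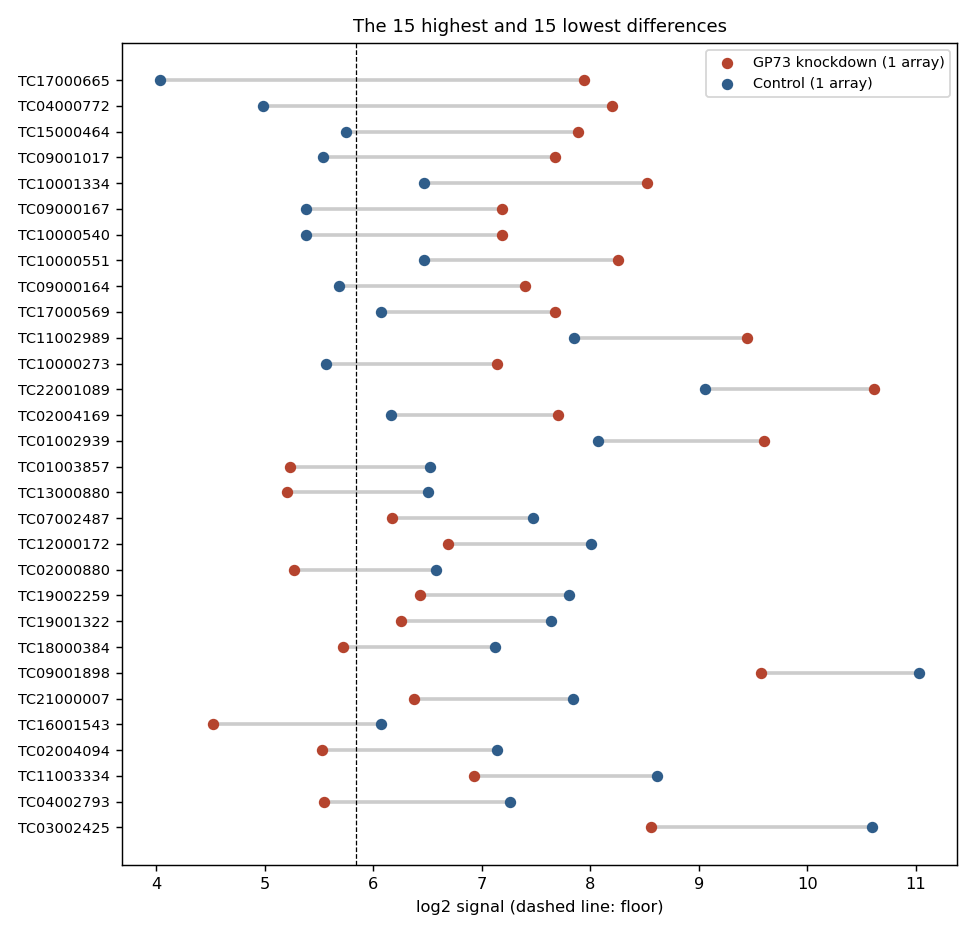
Log2 signal (horizontal axis) of the 15 highest and 15 lowest unnamed clusters by difference, 1 cluster per line, with the knockdown array in red and the control array in blue. The dashed line is the floor of 5.8447, and in 7 of the 15 upper and 8 of the 15 lower clusters both points lie to its right.

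TC12000172 was not alone in sharing its values. In all, 597 unnamed clusters (7.53%) had the same pair of values as at least 1 other unnamed cluster, in 151 sets of 2 to 35 clusters, so the 7928 clusters held 7482 distinct pairs of values. The largest set, 35 clusters on several chromosomes and unplaced contigs, had 7.17 in the knockdown array and 7.13 in the control array. Of the 151 sets 80 were pairs, 50 spanned more than 1 chromosome, 4 were higher by 2-fold or more and 1 was lower by 2-fold or more. The sets that were at least 2-fold higher included TC01001402 with 6 clusters on chromosome 1 (8.62 in the knockdown array, 7.61 in the control array, 1.00) and TC07000771 with 4 clusters on chromosomes 7, 10, 16 and X (7.08 in the knockdown array, 5.999 in the control array, 1.08). Of the 597 clusters in sets 2.35% were higher and 0.335% lower by 2-fold or more, against 1.03% and 0.580% of all 7928 unnamed clusters. Over all clusters above the floor these shares were 0.498% and 0.308%. Counting equal pairs once left 72 unnamed clusters higher (0.962%) and 45 lower (0.601%) by 2-fold or more.

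Of the unnamed clusters, 35 shared both values with a named row, TC12000172 among them, and 18 of the 35 also belonged to the sets just described. On chromosome 19, 10 of them had the values of SNAR-A clusters, genes of a small noncoding RNA family, at 7.33 in the knockdown array and 7.29 in the control array (0.04). The 6 clusters equal to EHMT2-AS1, an antisense RNA gene, stood at 6.37 in the knockdown array and 5.89 in the control array (0.48) and were on alternate haplotypes of chromosome 6. TC16000197 had the values of a cluster annotated to 3 MIR3180 genes, 6.34 in the knockdown array and 6.001 in the control array (0.34). These 35 clusters repeat named measurements to every deposited digit.

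All 22 mitochondrial clusters of the array were unnamed and above the floor. The mitochondrial genome encodes subunits of the respiratory chain together with the ribosomal and transfer RNAs needed to translate them, and the gene table lists 37 genes there, 22 of them transfer RNA genes. The clusters fell into 2 bands of brightness. In the brighter band, with at least 11 in both arrays, the 15 clusters had 11.99 to 13.06 in the knockdown array and 12.24 to 13.10 in the control array, and their differences ran from -0.25 to 0.06, with 11 lower and 4 higher. In the dimmer band the 7 clusters had 9.29 to 10.68 in the knockdown array and 8.22 to 10.65 in the control array, and 5 of them were higher. The largest of these differences was at TC0M000019, with 9.29 in the knockdown array and 8.22 in the control array (1.07), followed by TC0M000008 with 9.77 in the knockdown array and 8.95 in the control array (0.82). The sources used here do not say which mitochondrial gene each cluster covers, and the border between the bands was set after the values had been seen.

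**Figure D4:**
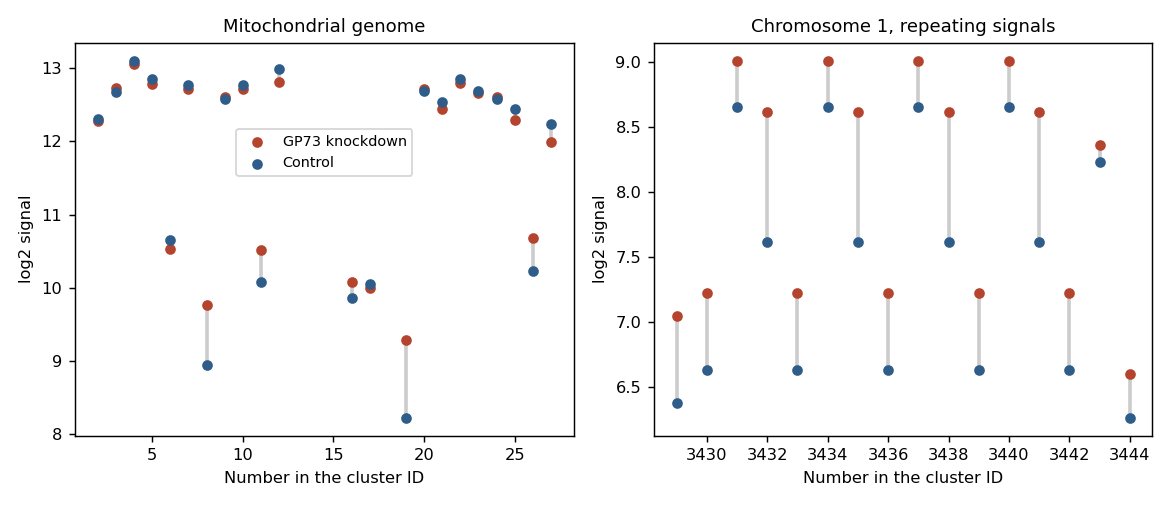
Log2 signal of the 22 mitochondrial clusters (left) and of 16 clusters on chromosome 1 (right) by the number in the cluster ID, with the knockdown array in red and the control array in blue. On the left the 15 bright clusters differ by at most 0.25 while 2 of the 7 dimmer ones differ by 0.82 and 1.07, and on the right the same 3 signal levels recur every 3 IDs, with the knockdown array above the control array at every cluster.

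On chromosome 1 a tandem pattern appeared in the ID order. Along TC01003430 to TC01003442 the same 3 pairs of values recurred every 3 IDs: 7.22 in the knockdown array and 6.63 in the control array (0.59) at 5 clusters, 9.01 in the knockdown array and 8.65 in the control array (0.36) at 4 clusters, and 8.62 in the knockdown array and 7.61 in the control array (1.00) at 4 clusters. The last pair is that of the TC01001402 set given above, so these 4 clusters and that set are 1 measurement. With the clusters on either side, the 16 clusters of the stretch held 6 distinct measurements, and all 16 were higher in the knockdown array, with a median of 0.59. The stretch lies between CFAP126 and RPL31P11, where 32 of 49 genes in the gene table are transfer RNA genes. Another stretch of IDs on the same chromosome, TC01001389 to TC01001398, held 10 clusters with 3 distinct measurements, all higher in the knockdown array, with a median of 0.34. It lies between SDHC and FCGR2A, where 27 of 35 genes are transfer RNA genes. Transfer RNAs carry amino acids to the ribosome and are transcribed by RNA polymerase III from many near-identical gene copies, often in arrays.

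These stretches were picked out after their values had been seen, and the same count was then made over all chromosomes. Of the unnamed clusters, 2869 lay in ID order between 2 named genes at most 1 Mb apart. Where the interval held a transfer RNA gene the 244 clusters had a median difference of 0.14 and 76.2% were higher, and where it held none the 2625 clusters had a median of 0.04 and 54.7% were higher. With equal pairs counted once the medians were 0.13 for 165 clusters with a transfer RNA gene in the interval and 0.05 for 2442 clusters without. The 2 stretches on chromosome 1 are part of these counts. Without them 218 clusters had a transfer RNA gene in the interval, with a median of 0.13 and 73.4% higher. With equal pairs also counted once, 162 of the 165 clusters remained, with a median of 0.12 and 69.8% higher. Some of the stretches' values also stood at clusters elsewhere, so leaving the stretches out did not remove all the measurements that had prompted the count. By 2-fold or more, 5 were higher and 3 lower among the 244 clusters, and 46 higher and 9 lower among the 2625. Among the 218 clusters outside the 2 stretches there were 1 higher and 3 lower. With equal pairs counted once there were 1 higher and 3 lower among the 165, and 42 higher and 9 lower among the 2442. For comparison, 1.03% of all unnamed clusters above the floor were higher and 0.580% lower, and of all clusters above it 0.498% and 0.308%. Such an interval can hold other transcripts too, and whether any of these clusters is a transfer RNA gene was not tested.

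Neighbouring clusters differed in the same direction in some places and in opposite directions in others. By the rule of runs of at least 3 adjacent IDs that were all at least 1.5-fold different in 1 direction, there were 3 runs. TC01006059 to TC01006061 were lower, with differences of -0.81, -0.99 and -0.71 from 3 distinct measurements. TC16000231 to TC16000233 were higher, with 1.09, 0.67 and 0.67, the last 2 being 1 measurement. The run of 8 from TC16000950 to TC16000957, next to the pseudogene RRN3P3, was a single pair of values, 8.26 in the knockdown array and 7.59 in the control array (0.67), which 11 clusters of chromosome 16 shared. Only the run on chromosome 1 therefore held 3 separate measurements. That run lies in a long stretch of IDs without a named cluster, so whether its 3 clusters are neighbours in the genome was not checked. For comparison, 401 of the 7928 unnamed clusters were at least 1.5-fold higher (5.06%), and 339 were lower by as much or more (4.28%). The background over all clusters above the floor was 2.64% higher and 2.58% lower, and over the clusters with 1 symbol it was 1.06% higher and 1.51% lower.

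On chromosome 10, 9 of the 25 unnamed clusters from TC10000532 to TC10000556 were above the floor. Of these 9, 8 were higher in the knockdown array, with a median of 0.83. Of all 25, 23 were higher, but most of the 25 were below the floor, where differences were not read. Over the whole array 53.6% of unnamed clusters above the floor and 60.6% of those below it were higher. The chromosome 10 group includes TC10000540 and TC10000551, described above. Of the 9, TC10000540 and TC10000552, with 5.38 and 5.73 in the control array, reached the floor in the knockdown array only, so their direction came from the choice. On chromosome 9, all 5 unnamed clusters above the floor between TC09000158 and TC09000168 were higher, among them TC09000164, with 7.40 in the knockdown array and 5.68 in the control array (1.71), and TC09000167. These 2 reached the floor in the knockdown array only, so they could only be higher. The chromosome 9 and 10 groups were not separate, since TC09000167 and TC10000540 are 1 measurement. TC09000166 and TC09000168 each had the values of a cluster on chromosome X, and TC10000534 those of the TC07000771 set. These shared measurements cannot be placed on 1 chromosome. On chromosome 2, TC02004093 and TC02004094 were both lower, with differences of -1.13 and -1.61, in a stretch of IDs without a named cluster. Both reached the floor in the control array only, with 5.23 and 5.53 in the knockdown array, so their direction came from the choice. Direct neighbours in ID order could also differ in direction: TC07001901 and TC07001902 were 1.40 and 1.39 higher, beside TC07001900, which was lower at 8.54 in the knockdown array and 9.40 in the control array (-0.86). The values of TC07001900 were shared by 4 clusters on chromosomes 3, 7, 14 and 20, so this measurement cannot be placed on chromosome 7 alone. These 4 groups too were chosen after their values had been seen.

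Across the genome, adjacent IDs resembled each other weakly. The differences of 1931 pairs of adjacent unnamed clusters had a Pearson r of 0.27, and 59.9% of them had equal signs. With equal pairs counted once r was 0.23 over 1668 pairs, and at 50 places apart it was 0.01 over 6634 pairs for all unnamed clusters. Of the 1668 pairs, 1273 lay in the longest stretches of IDs without a named cluster, with an r of 0.19, and 395 lay elsewhere, with 0.30. Clusters with 1 symbol had 0.22 over 4144 adjacent pairs and 0.03 at 50 places. An unnamed cluster and an adjacent named cluster had an r of 0.13 over 1821 pairs. These values are descriptions across clusters of the same 2 arrays, which share the arrays' scaling and any overlap of probes.

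**Figure D5:**
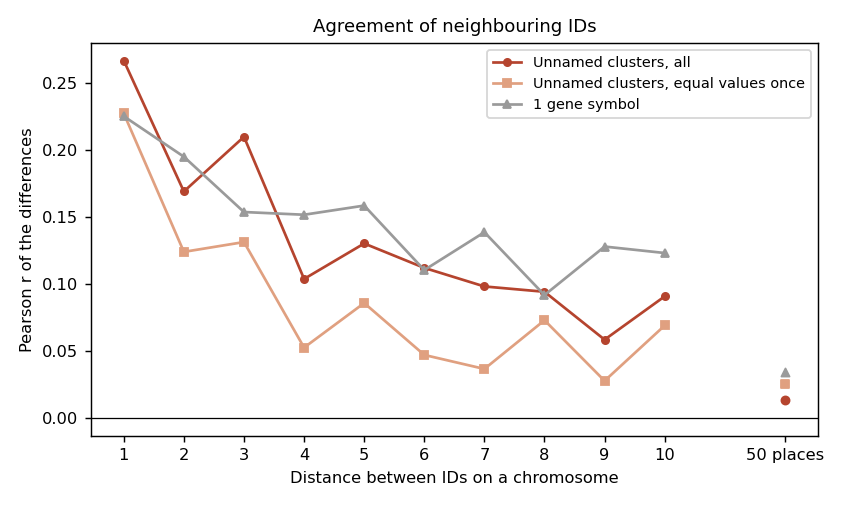
Pearson r of the knockdown minus control differences of pairs of clusters (vertical axis) by the distance between their ID numbers on a chromosome, with pairs 50 places apart at the right, for all unnamed clusters (dark red circles), unnamed clusters with equal values counted once (light squares) and clusters with 1 gene symbol (grey triangles). At a distance of 1 the values are 0.27, 0.23 and 0.22, and the peak of the dark red line at a distance of 3, 0.21, is 0.13 when equal values are counted once.

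Large differences were also counted by place in the ID order. On each of 24 chromosomes the longest run of IDs without any named cluster was marked as the long stretch, and these runs held 122 to 2160 rows. The 4205 unnamed clusters above the floor in these stretches had a median difference of 0.02, with 23 higher (0.547%) and 32 lower (0.761%) by 2-fold or more. The 3611 clusters elsewhere on these chromosomes, called here those among the named rows, had a median of 0.04, with 58 higher (1.61%) and 14 lower (0.388%) by 2-fold or more. Beside the background of 0.498% higher and 0.308% lower over all clusters above the floor, the share higher in the stretches and the share lower among the named rows were close to it. Counting equal pairs once gave 48 higher (1.49%) and 13 lower (0.405%) among the named rows. The split was sensitive to the scaling: with median centring it became 13 higher and 47 lower in the stretches, and 33 higher and 28 lower among the named rows. Of the 15 clusters with the highest differences 3 lay in the long stretches, against 8 of the 15 with the lowest. The sources used here do not say what sets the long stretches apart in the array's design, and their limits were chosen after the names in ID order had been seen. The 90 clusters on alternate haplotypes and unplaced contigs had a median of -0.01, and 0 of them were 2-fold different.

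The chromosomes differed in how many of their unnamed clusters were bright. The share ranged from 9.36% on chromosome 13 to 35.4% on chromosome 16, with 35.2% on chromosome 19 and 28.2% on chromosome 17, and it was 22 of 22 for the mitochondrial genome. The median differences were small and followed those of the named clusters of the same chromosome. Chromosome Y, with 32 unnamed and 23 named clusters, had the lowest median of the unnamed clusters, -0.09, against -0.07 for named clusters, and was the only chromosome where the unnamed median was the lower. The medians were highest on chromosome 19, at 0.10 for both unnamed and named clusters, and on chromosome 22, at 0.10 for unnamed and 0.09 for named clusters. Values below 0 were also found on chromosome 3, at -0.04 for unnamed and -0.07 for named clusters, and on chromosome 7, at -0.04 for unnamed and -0.05 for named clusters. Chromosome 4 had -0.01 for unnamed and -0.11 for named clusters. Over the 24 nuclear chromosomes the medians of unnamed and named clusters had a Pearson r of 0.73 and a Spearman rho of 0.72, as a description of points that share arrays and scaling, and the unnamed median was the higher on 23 of the 24.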

How the data were processed

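Total RNA of 1 GP73 knockdown and 1 control culture of MHCC97H was measured on Affymetrix arrays, per the labels. The deposited table gave a log2 signal per row and array. Affymetrix Expression Console is the tool named in the submitters' processing notes, and the sources used here give neither its version nor the steps of background correction, normalisation and probe summary, nor the build. That the scale is log2 was inferred from the values: they spanned 0.33 to 13.3 in the knockdown array and 0.36 to 13.2 in the control array, with a median over 70523 rows of 4.80 in the knockdown array and 4.72 in the control array. With 1 array per group the number of arrays limits the precision, and no detection calls were used.

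Rows whose ID starts with TC were kept, which left out 2995 others. Symbols came from the platform annotation. The floor was the 50th percentile of the brighter signal over named genes, each gene standing by its brightest row. Differences are knockdown minus control, and robust SDs are the median absolute deviation scaled to the SD of a normal distribution. Named are GOLM1, the 15 highest and 15 lowest differences, the 10 and 10 among clusters above the floor in both arrays, the 10 brightest clusters, the 3 on either side of the floor, runs of 3 or more adjacent IDs past 1.5-fold, and named clusters within 3 IDs of a cluster with an extreme difference. Sets, stretches and windows outside that rule were chosen after their values were seen. The clusters and lists were chosen with earlier results of these data known. Alternatives were 3 scalings (median centring, quantile normalisation, lowess), other floors and thresholds, 20 bins, bins by the brighter signal, and equal pairs counted once. The procedures were tested on simulated data. Python 3.11.15, numpy 2.4.6, pandas 2.3.3, scipy 1.17.1, statsmodels 0.14.6 and matplotlib 3.10.9 were used.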

Additional observations from a re-analysis of the deposited data

How the results depend on the processing

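No paired analysis was possible because each group had 1 array, and for the same reason no replicate could be left out. The median difference of the unnamed clusters, 0.03, became -0.053 with median centring, by the construction of that scaling. The counts past 2-fold, 82 higher and 46 lower, became 46 and 75 with median centring, 50 and 22 with the floor required in both arrays, 171 and 135 without a floor, 401 and 339 at 1.5-fold and 11 and 4 at 3-fold. In the long stretches, 23 higher became 13 with median centring and 15 with the floor in both arrays, and 32 lower became 16 with the floor in both arrays. Among the named rows, 58 higher and 14 lower became 33 and 28 with median centring and 34 and 6 with the floor in both arrays. The alternatives for these 2 groups, and the count of transfer RNA intervals without the chromosome 1 stretches, were chosen after seeing the data. The neighbour r of 0.27 was 0.22 for IDs at most 3 apart. With lowess, the differences of TC0M000004 and TC19002195 changed sign to 0.0148 and 0.0063, and those of the 5 bright clusters that share their values (TC02000740, TC04000491, TC04001102, TC07001932 and TC09000152) to 0.0311, or 0.0228 with quantile normalisation. All 35 clusters named for their difference kept their sign and stayed past 2-fold under the 3 scalings, with shifts of at most 0.108. They had been chosen as extreme, and the smallest of their differences was 1.24 in size, so shifts this small could not change either outcome. The ratio of the 2-fold shares of unnamed and named clusters lay between 4.75 and 6.40 in the settings tried.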

Other observations

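The 34276 unnamed clusters below the floor had a median difference of 0.09, with 89 higher and 89 lower by 2-fold or more in the knockdown array; at such low signals these counts were not read as differences. A part of the table listed exactly the same value for both arrays: 51 of 7928 unnamed clusters above the floor (0.643%) and 207 of 11717 clusters with 1 symbol above it (1.77%), against 2910 of 34276 unnamed clusters (8.49%) and 1052 of 12067 clusters with 1 symbol (8.72%) below it. Across the unnamed clusters above the floor the signals of the knockdown and control arrays had a Pearson r of 0.960, and across the clusters with 1 symbol 0.970, as descriptions over clusters of 1 pair of arrays.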
